A study of Mus musculus with 2 samples.

Results

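In ear skin of mice with allergic contact dermatitis (ACD), dermal fibroblasts (dFBs) carrying mRNA of Gdf10 or C7 were compared with the same cells of healthy ear skin. The cells were chosen by their own counts of unique molecular identifiers (UMIs, each standing for 1 captured mRNA molecule). Barcodes with more than 200 and fewer than 5000 genes were kept where they had no more than 25000 UMIs and where mitochondrial transcripts made up less than 8% of them. A kept cell was a member if it held at least 1 UMI of Pdgfra (a receptor that marks fibroblasts), no UMI of Ptprc (the leukocyte antigen CD45), at least 3 UMIs of Gdf10 and C7 together, and at most 2 UMIs each of Pi16 and Cyp2f2, genes that mark other dFBs. Of 12213 control and 11665 ACD cells kept, 112 control and 29 ACD cells met the rule, which made 141 members among 23878 cells.

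Both libraries came from ICR mice aged 7 to 8 weeks. The control library was made from healthy ear skin. For the ACD library the mice were sensitized on the back with 1.0% of the hapten dinitrofluorobenzene (DNFB), the ears were exposed to 0.2% DNFB 6 days later, and the ear skin was taken 60 hr after that second exposure. Each group was 1 droplet library from collagenase-digested skin, and the number of mice behind a library is not given in the sources used here.

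Gdf10 encodes a secreted protein of the TGF-beta superfamily, and C7 encodes a complement protein of the membrane attack complex. Preadipocytes are fibroblast-like cells that can become adipocytes but hold no large lipid droplets, and the dermis contains such cells beside its collagen-producing fibroblasts. Interferon-gamma (IFNγ), released by T cells in ACD, acts through the receptor chains IFNGR1 and IFNGR2 and through the kinases JAK1 and JAK2. In fibroblasts it is known to raise antigen presentation genes, defence GTPases and the chemokines CXCL9 and CXCL10, which attract T cells bearing the receptor CXCR3.

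The libraries held 12895 and 13163 barcodes with 99037698 and 126566870 UMIs, and 50 barcodes occurred in both, 1 of them a control member. The members held 1006521 UMIs in the control library and 292466 in the ACD library, with a median of 8287 and 10138 UMIs per cell. The level of a gene is given as its UMIs per 1000000 UMIs of all members of the library. Intervals are exact 95% intervals of the counts. They cover counting error only, because the cells of 1 library are not replicates, so no difference between the libraries was tested and the library cannot be told apart from the disease.

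Members met the gate mostly through C7 in the control library and about equally through either gene in the ACD library. These values chose the members and are given as a description only. Gdf10 (chr14:33923587-33937983, + strand, mm10) reached 3 UMIs in 45 control and 15 ACD members. C7 (chr15:4988762-5063740, − strand) reached 3 UMIs in 68 control and 14 ACD members. Both genes reached 3 UMIs in 11 and 4 members, and 10 and 4 members passed by the sum alone. Gdf10 outnumbered C7 in 44 control and 16 ACD members, whereas C7 outnumbered Gdf10 in 61 and 12, and 7 and 1 cells held equal counts. Gdf10 was at 0 in 47 control and 7 ACD members and C7 in 22 and 9, which lie on the axes in the plot of Gdf10 against C7 counts.

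**Figure D1:**
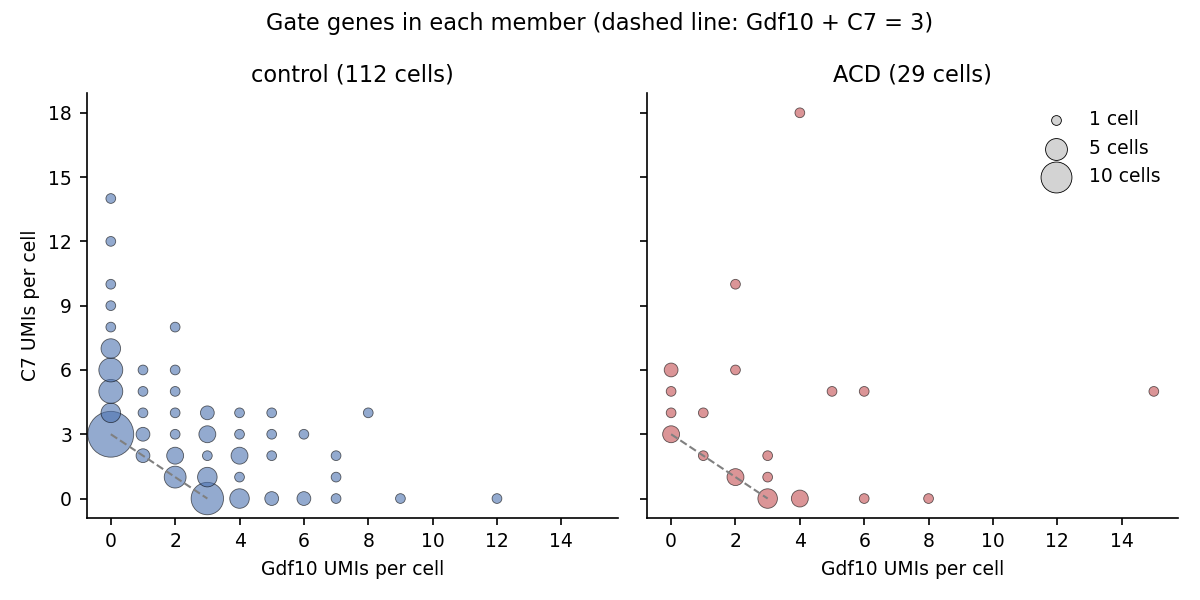
UMIs of Gdf10 (x axis) and C7 (y axis) in each member. Dashed lines mark a sum of 3 and point size grows with the number of cells. Blue stands for the control library and red for the ACD library. The 112 control and 29 ACD members spread along both axes, and only 11 and 4 of them hold 3 or more UMIs of both genes.

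The limit at 3 UMIs cut through a continuous range. Just outside it, with 2 UMIs of Gdf10 and C7, stood 63 control and 24 ACD cells, and just inside, with 3 UMIs, stood 40 and 11. Cygb, the oxygen-binding cytoglobin of fibroblasts, had a level of 654 just outside and 550.3 just inside in the control library, and of 488 and 742 in the ACD library. H2-K1, a classical MHC class I heavy chain, was at 199.98 and 165 in the control library and at 1121 and 1601 in the ACD library. On both sides of the limit, H2-K1 differed more between the libraries than across the limit. The members held 46.4% of all Gdf10 UMIs and 47.5% of all C7 UMIs of the Pdgfra-positive Ptprc-negative control cells, and 29.4% and 36.0% in the ACD library.

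Most members carried the genes that the preadipocyte label rests on, and some did not. Cygb had at least 1 UMI in 102 control and 24 ACD members. Ly6a, which encodes the progenitor surface protein Sca-1, was found in 107 and 27 members, and Lpl, the lipoprotein lipase that releases fatty acids for adipocytes, in 95 and 23. Ly6a does not set the members apart, as it was found in 88.5% and 91.04% of cells gated on Pi16 and in 97.8% and 98.1% of cells gated on Cyp2f2, other dFBs chosen in the same way. Ggt5, a gamma-glutamyltransferase, was scarce, with 30 UMIs in 23 control members and 19 UMIs in 12 ACD members. Pparg, the master regulator of adipocyte formation, gave 14 and 4 UMIs. Of 11 genes of mature adipocytes, 6 had no UMI in any member, among them Adipoq (adiponectin) and Plin1 (perilipin, the coat of lipid droplets), so the members were not mature adipocytes by these genes. After every cell was thinned to 2000 UMIs, Cygb was seen in 64.3% (54.7% to 73.1%) of control and 58.6% (38.9% to 76.5%) of ACD members, against 40.1% and 41.7% in the gate on Pi16, 13.5% and 24.2% in the gate on Cyp2f2, and 3.02% and 0.913% of T cells, which should lack it (median depth 4108 and 6020 UMIs before thinning). Without thinning the members' shares were 91.1% and 82.8%. They were 71.1% and 81.2% in the gate on Pi16, and 31.6% and 50.7% in the gate on Cyp2f2. The unthinned shares of the members and of the gate on Pi16 were thus close in the ACD library.

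Part of the members carried cartilage genes instead. More than 2 UMIs of Acan (aggrecan), Col2a1 and Col9a1 to Col9a3 (cartilage collagens) together were found in 14 control and 4 ACD members, which is 12.5% and 13.8%. The same held for 4.30% and 3.36% of cells gated on Pi16 and for 5.79% and 5.21% of cells gated on Cyp2f2, 2 gates built in the same way with the other 2 markers held at no more than 2 UMIs. With all 10 chondrocyte genes the share of cells over 2 UMIs was 22.3% and 20.7% in the members, 24.6% and 23.2% in the gate on Pi16 and 17.1% and 26.1% in the gate on Cyp2f2, so the longer list showed no such excess. All 4 ACD cells of this kind had more Gdf10 than C7, no C7, no Lpl, no Cygb and at most 1 UMI of Ly6a. In the control library 5 of the 14 had this profile, with 43 to 109 cartilage UMIs each. The other 9 control cells held both cartilage genes and Ly6a. Dcn (decorin), the most abundant proteoglycan of these fibroblasts, was at 1084 in the 4 ACD cells and at 20299 in the other 25. These cells meet the rule but go against the preadipocyte label. Counts of genes past 2-fold between the libraries, and the list medians that moved most, are therefore also given without them. This alternative was chosen after seeing the data. Counts of genes higher or lower than in the other 2 gates were made with all members only.

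**Figure D2:**
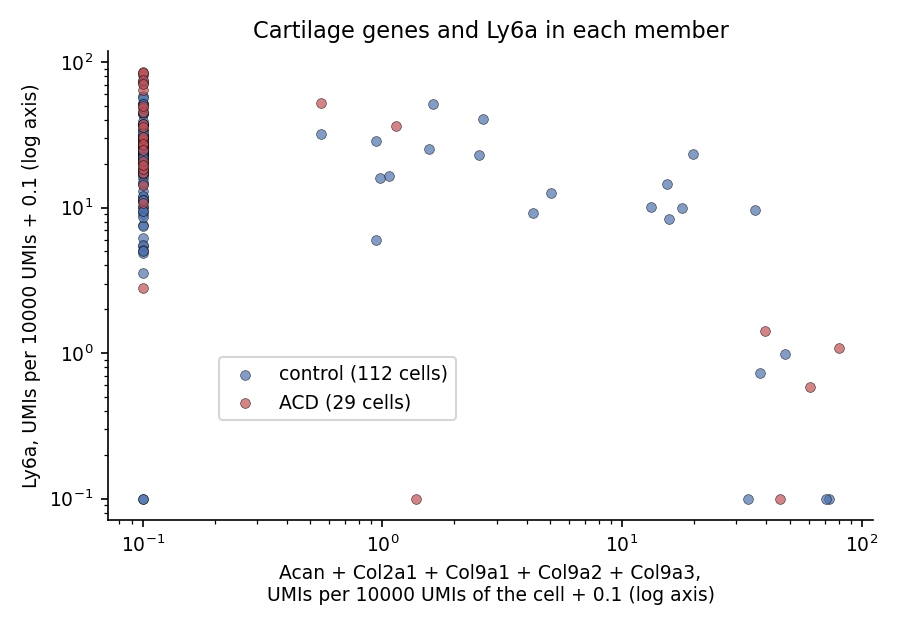
Ly6a (y axis) against the sum of 5 cartilage genes (x axis) in each member, both in UMIs per 10000 UMIs of the cell with 0.1 added, on log axes. Blue points are the 112 control members and red points the 29 ACD members; the 4 ACD members with more than 2 cartilage UMIs sit at the bottom right with at most 1 UMI of Ly6a, while most other members lie at the left edge with Ly6a.

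Markers of other cell types were low in the members, with exceptions that rested on few cells. The summed level of 10 T and NK cell markers was 2.98 in the control and 82.1 in the ACD library (3 and 24 UMIs), and 1 ACD member held 13 of these UMIs; Lck and Ptprcap were at 0 in both. Over 10 vessel and mural markers it was 219 and 58.1, with Cdh5, Tie1 and Egfl7 at 0 in both. Over 10 glial and melanocyte markers it was 158 and 47.9, and 7 control members and 1 ACD member held more than 2 of these UMIs. Over 10 keratinocyte markers it was 56.6 and 58.1, and over 10 myeloid and mast cell markers 12.9 and 23.9, with Lyz2 at 0. The part of these cells in the differences described here was not tested, and Scrublet, which predicts doublets, marked 10 control members and no ACD member, against 4.68% and 3.29% of all kept cells.

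The members made up a smaller share of the ACD library than of the control library. They were 0.917% (0.756% to 1.10%) of the kept control cells and 0.249% (0.167% to 0.357%) of the kept ACD cells, a ratio of 0.271. Among Pdgfra-positive Ptprc-negative cells, of which there were 5547 and 3292, the members were 2.02% (1.67% to 2.42%) and 0.881% (0.591% to 1.26%). The gap was therefore also present relative to these Pdgfra-positive cells, with a ratio of 0.436. The limits on Pi16 and Cyp2f2 took part in it: without them 158 control and 68 ACD cells passed, and the ratio over kept cells was 0.451. Set against the 5547 and 3292 Pdgfra-positive Ptprc-negative cells, these 158 and 68 cells left a smaller gap than the members did. Over all Pdgfra-positive Ptprc-negative cells Gdf10 was at 10.1 and 8.09 and C7 at 14.99 and 6.98, so fewer such cells and less of these mRNAs per cell cannot be told apart. Without the doublet calls the ratio over kept cells was 0.293. A smaller share in the ACD library was also seen in the gate on Cyp2f2, with 743 of 12213 kept control and 211 of 11665 kept ACD cells. The gate on Pi16 held 419 and 357 cells. A smaller share is thus not particular to the members.

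Across the genes counted, few stood higher and more stood lower in the ACD members. Among 3447 genes with at least 50 UMIs over the members of both libraries, 36 (1.04%) were at least 2-fold higher in the ACD library and 106 (3.08%) at least 2-fold lower, by the ratio of levels with 10 UMIs per 1000000 added to each. The median log2 ratio over all 3447 genes was −0.04. The minimum of 50 UMIs is summed over 1006521 control and 292466 ACD member UMIs. A gene seen only in the control library therefore passed it at a lower level than one seen only in the ACD library. In the gates on Pi16 and Cyp2f2 the balance ran the other way. Of 9353 genes counted in the gate on Pi16, 102 (1.09%) were higher and 31 lower. Of 9678 genes counted in the gate on Cyp2f2, 116 (1.20%) were higher and 29 lower. The share of higher genes was thus close to that of the members, and the share of lower genes was smaller. The sets of genes counted differ between the gates. The 15 highest include Saa3, Iigp1, Plac8, H2-K1, Ifi27l2a, Psmb8 and B2m, and the 15 lowest include Tnc, Dlk1, Comp, Angptl7, Postn and Igfbp3. When the cell with the most UMIs of a gene was left out of each library, 17 of the 36 higher and 103 of the 106 lower genes stayed past 2-fold, and 17 and 212 genes were past it in all. This step takes 1 of 29 ACD cells but 1 of 112 control cells and so lowers ratios by construction, with the median over all genes at −0.20. The plot of levels shows genes from both ends of this ranking, each with its interval.

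**Figure D3:**
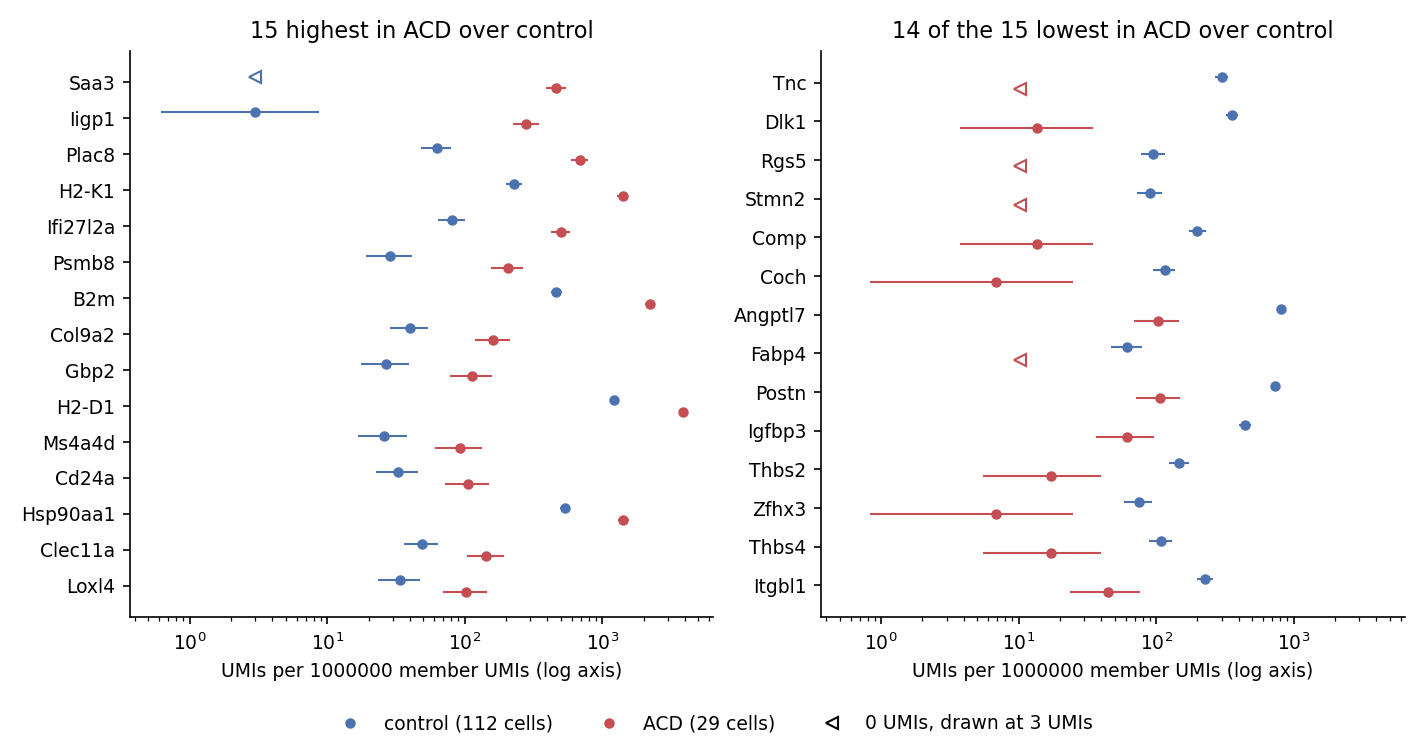
Levels of the 15 genes highest (left) and of 14 of the 15 genes lowest (right) in ACD over control members, in UMIs per 1000000 member UMIs on a log axis. Blue points are the control library, red points the ACD library, bars are exact 95% Poisson intervals and triangles stand for 0 UMIs drawn at the level of 3 UMIs; Saa3 has no UMI in the control library, and Tnc, Rgs5, Stmn2 and Fabp4 have none in the ACD library.

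The MHC class I list stood higher in the ACD members. Its products present peptides of the cell's own proteins to CD8+ T cells. H2-K1 (chr17:33996017-34000347, − strand) had 231 UMIs in 89 of 112 control members and 411 UMIs in 29 of 29 ACD members, a level of 229.5 (200.9 to 261) against 1405 (1273 to 1548) and a ratio of 6.12 (5.20 to 7.23). Per cell it ranged from 0 over a median of 1.84 to 10.8 UMIs per 10000 in the control library and from 0.986 over 13.6 to 32.6 in the ACD library. Of the 29 ACD members, 19 lay above the highest control member, and the ranges overlapped in the other 10. B2m (chr2:122147686-122153083, + strand), the light chain shared by all MHC class I proteins, had a level of 463 (422 to 507) and 2219 (2052 to 2397), a ratio of 4.79 (4.25 to 5.41). Its median per cell was 3.74 and 18.96, and 13 ACD members lay above the highest control member.

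H2-D1, another classical heavy chain, was at 1216 and 3891, a ratio of 3.20 (2.95 to 3.47), and was found in every member of both libraries. Psmb8, an immunoproteasome subunit that cuts peptides for presentation, had 29 UMIs in 26 control and 60 UMIs in 18 ACD members, a ratio of 7.12 (4.50 to 11.5). Of 13 class I and peptide-loading genes counted, these 4 were past 2-fold higher and none past 2-fold lower, against 1.04% and 3.08% of all genes. The median log2 ratio of the 13 was 0.80 against −0.04 over all genes. The chaperones Canx, Pdia3 and Calr had log2 ratios of −0.20, 0.10 and 0.32, with none past 2-fold. After thinning to 2000 UMIs, H2-K1 was seen in 33.0% (24.4% to 42.6%) of control and 86.2% (68.3% to 96.1%) of ACD members, while unthinned shares were 79.5% and 100%. T cells, which carry H2-K1 themselves, had thinned shares of 59.1% and 95.02%. The ACD members with cartilage genes had less of it: H2-K1 was at 383 in those 4 cells and at 1601 in the other 25, against 171 and 243 in the control library.

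**Figure D4:**
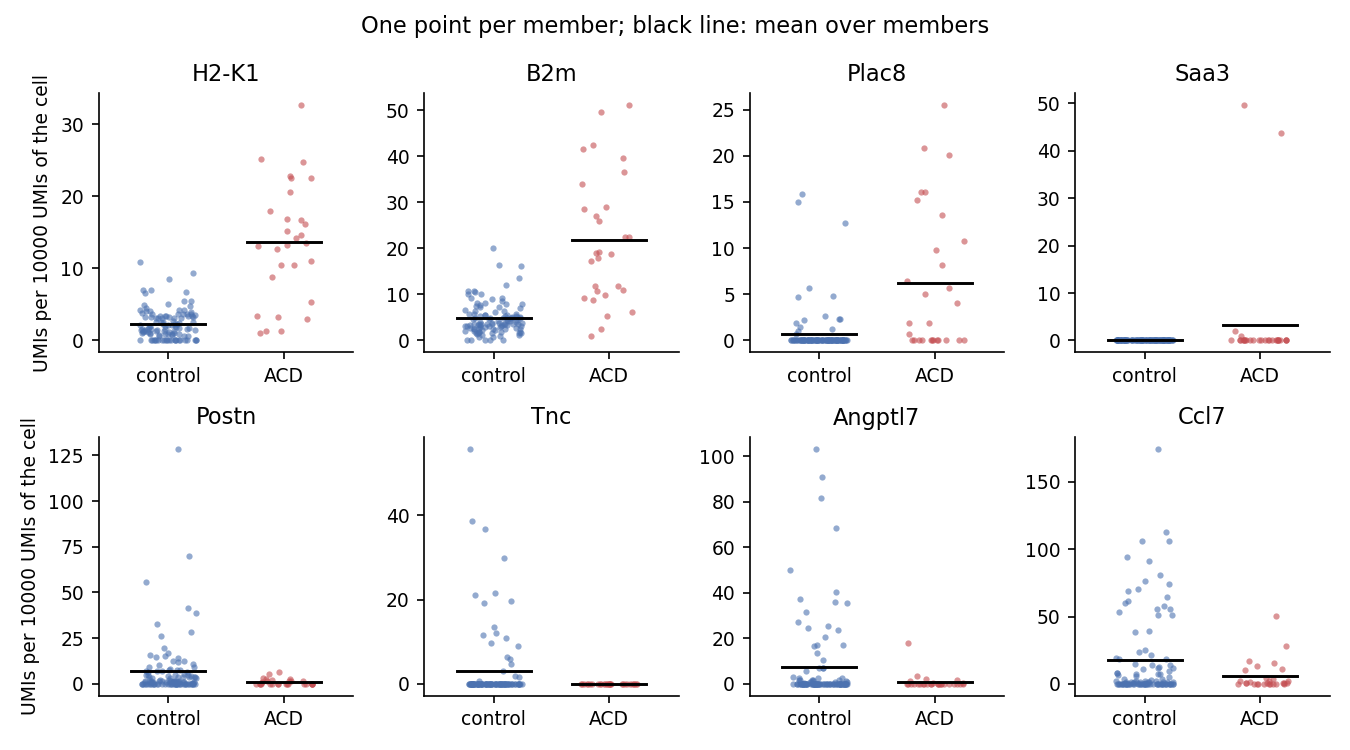
UMIs per 10000 UMIs of the cell (y axis) of 8 genes in each member, with control members in blue and ACD members in red and black lines at the mean. H2-K1 and B2m are shifted over most ACD cells (19 and 13 of 29 above every control cell), whereas for Plac8 12 of 29 ACD cells hold no UMI, and Postn and Ccl7 reach their highest values in control cells.

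Other interferon-inducible genes were also higher in the ACD members, in fewer cells. Gbp2, a guanylate-binding protein that attacks the vacuoles of intracellular pathogens, had 27 UMIs in 21 control members and 33 in 11 ACD members, a ratio of 4.21 (2.45 to 7.27). Iigp1, an immunity-related GTPase, had 3 UMIs in 1 control member and 82 UMIs in 11 ACD members, a ratio of 94.1 (31.1 to 466), and 48.8% of the ACD UMIs were in 1 cell. These were the only GBP and IRG genes of 16 with 50 UMIs or more. Thinned, Gbp2 was in 10.3% of ACD members and 12.2% of ACD T cells, and Iigp1 in 17.2% and 3.35%. Ifi27l2a, an interferon-induced mitochondrial protein, had 81 UMIs in 26 cells and 146 in 16 cells, a ratio of 6.20 (4.70 to 8.24), with thinned shares of 31.0% of ACD members and 31.9% of ACD T cells. Bst2 (tetherin, which holds budding virus to the membrane) had a log2 ratio of 1.33, while Ifitm2 and Ifitm3, entry inhibitors with 1275 and 1631 control UMIs, had −0.01 and 0.60. Of 5 antiviral genes counted, Ifi27l2a and Bst2 were past 2-fold higher, against 1.04% of all genes.

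Several of the genes with the highest ratios are textbook targets of interferon, and the 250 bases before the RefSeq transcript start (GRCm38.p6) were searched on both strands for the interferon-gamma activated motif GAS (TTCNNNGAA) and for the core of the interferon-stimulated response element, ISRE (TTTCNNTTTC, or GAAANNGAAA on the other strand). A match was found in 4 of the 11 genes whose windows were searched among the 15 highest: Saa3, Psmb8, B2m and Gbp2. The others, with Iigp1 among them, were not searched. Windows on a single chromosome were left out for these genes but not for the shares over all windows. Of 32851 promoter windows of the same length, 7.02% held the GAS letters and 2.98% the ISRE core. The windows of 3 class I and GTPase genes are shown, on the + strand at chr2:122147437-122147686, chr3:142620413-142620662 and chr17:34197945-34198194, with the matched letters in capitals (an ISRE core in B2m and Gbp2, a GAS match in Psmb8).
B2m: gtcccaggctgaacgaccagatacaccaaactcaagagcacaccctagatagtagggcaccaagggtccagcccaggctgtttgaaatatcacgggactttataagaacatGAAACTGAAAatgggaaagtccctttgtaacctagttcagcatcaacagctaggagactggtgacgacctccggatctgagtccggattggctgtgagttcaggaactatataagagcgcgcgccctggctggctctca
Gbp2: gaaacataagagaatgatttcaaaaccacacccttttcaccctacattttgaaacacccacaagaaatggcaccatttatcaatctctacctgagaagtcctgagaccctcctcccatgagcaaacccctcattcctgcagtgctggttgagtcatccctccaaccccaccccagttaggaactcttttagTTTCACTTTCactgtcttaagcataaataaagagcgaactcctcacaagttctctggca
Psmb8: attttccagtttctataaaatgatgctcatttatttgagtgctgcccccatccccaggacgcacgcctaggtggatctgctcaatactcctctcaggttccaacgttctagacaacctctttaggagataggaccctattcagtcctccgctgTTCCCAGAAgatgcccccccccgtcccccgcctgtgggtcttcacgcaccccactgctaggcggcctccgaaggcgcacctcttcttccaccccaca
A match describes these letters only and was not tested for binding. H2-K1 and H2-D1 held neither set of letters in their windows and had ratios of 6.12 and 3.20.

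The CXCR3 ligands were detected in few members. Cxcl9 had 1 UMI in 1 control member and 15 UMIs in 5 ACD members, a level of 0.994 against 51.3, and Cxcl10 had 16 UMIs in 5 and 33 UMIs in 4 members, a level of 15.9 against 113. Thinned, Cxcl10 was in 6.90% of ACD members and 5.17% of ACD T cells, and unthinned in 13.8% and 10.6%. The share of members with a UMI was thus near that of T cells. Of the 33 ACD UMIs of Cxcl10, 22 were in 1 cell and 9 in another, so its level is that of a few cells. Neither gene reached 50 UMIs, so they were outside the count of 3447 genes. Their summed level was 16.9 (9.83 to 27.0) and 164 (121 to 218) in the members. In the gate on Pi16 it was 26.8 and 612, and in the gate on Cyp2f2 26.7 and 786, so the members had the lowest summed level of the 3 gates in the ACD library. Thinned to 2000 UMIs, Cxcl9 was seen in 2 of 29 ACD members (6.90%, 0.846% to 22.8%), against 8.40% and 17.1% in the gates on Pi16 and Cyp2f2 and 0.913% of T cells. Without thinning 17.2% of ACD members held it, and 0 of 112 thinned control members did, which allows a share of up to 2.68% of cells with a UMI at this depth.

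Genes of the IFNγ signalling chain were close to even. Ifngr1 had 119 and 35 UMIs, a log2 ratio of 0.02, and Ifngr2 32 and 12 UMIs, a log2 ratio of 0.29. Jak1 had a log2 ratio of 0.25, and Irf1, an early IFNγ target, 0.27. None of 8 genes counted passed 2-fold, and their median was 0.06.

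Of 4 acute phase and antimicrobial genes counted, Plac8 and Saa3 were past 2-fold higher, against 1.04% of all genes. Plac8, a cysteine-rich protein of placenta and immune cells that takes part in brown fat formation, had 63 UMIs in 15 of 112 control members and was found in 17 of 29 ACD members, at a level of 62.6 and 687, a ratio of 11.0 (8.24 to 14.8). Thinned, it was seen in 6.25% (2.55% to 12.5%) and 44.8% (26.4% to 64.3%) of members, and in 0.503% and 4.94% of T cells. Unthinned shares of members were 13.4% and 58.6%, and no cell with cartilage genes in the ACD library held it. Saa3, the serum amyloid A of inflamed fibroblasts and adipose tissue, had no UMI in the control library and 135 UMIs in 4 ACD members, at least 155-fold higher against a floor of 3 UMIs in the control members. Of these UMIs 71.1% were in 1 cell, so the size of the Saa3 difference is that of a few cells. Cp (ceruloplasmin) had a log2 ratio of 0.80 and Serpina3n, a protease inhibitor, −0.08.

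Complement genes differed less. Several were abundant in both libraries: C3, the central component, at 1189 and 1484, and Serping1, the C1 inhibitor, at 1726 and 2202. C1s1, the protease of the C1 complex, was at 223 and 513, a ratio of 2.30 (1.86 to 2.85). It was the only gene of 10 counted past 2-fold higher, against 1.04% of all genes. Its log2 ratio of 1.17 was 0.96 without its top cells. C4b was at 296 and 527, a log2 ratio of 0.81, and C2 at 221 and 219. The median log2 ratio was 0.34.

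Other chemokines differed in both directions. Ccl7, which attracts monocytes, had 2002 UMIs in 64 control members and 152 UMIs in 19 ACD members, a ratio of 0.261 (0.220 to 0.308). Its level per cell reached 174 UMIs per 10000 in the control and 50.5 in the ACD library, and 20 control members lay above the highest ACD member, yet the medians were 1.41 and 0.980. The thinned share was 43.8% in the control and 31.0% in the ACD library, with 57.1% and 65.5% unthinned, and 3.35% and 3.08% of T cells. Ccl8, another monocyte attractant, had 31 and 27 UMIs and a log2 ratio of 1.33, which was 0.89 without its top cells. Ccl2 had a log2 ratio of −0.22, Cxcl1, a neutrophil attractant, −0.66, and Cxcl12, the retention signal for leukocytes and stem cells, 0.69. Of 10 chemokine genes counted, Ccl8 was past 2-fold higher and Ccl7 past 2-fold lower, against 1.04% and 3.08% of all genes. The median of the 10 was 0.23. The log2 ratio of Ccl7 was −1.92, but −0.66 with all deposited barcodes and −0.29 with no limit on Pi16 or Cyp2f2. Ccl5 and Cxcl13, below 50 UMIs, had 30 and 28 UMIs in 2 and 1 ACD members and none in control members.

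Several matrix glycoproteins stood lower in the ACD members. Postn (chr3:54361109-54391037, + strand), which encodes periostin and binds collagen during remodelling, had 740 UMIs in 73 of 112 control members and 31 UMIs in 12 of 29 ACD members, a level of 735 (683 to 790.1) and 106 (72.02 to 150.5), and was 6.94-fold higher in the control library. Of the control members 29 lay above the highest ACD member, while 39 control and 17 ACD members held none. The thinned share was 35.7% and 13.8%, with 65.2% and 41.4% unthinned, and 2.68% and 1.22% in T cells. Tnc (chr4:63959785-64047015, − strand), the wound-associated glycoprotein tenascin C, had 302 UMIs in 21 control members and none in 29 ACD members, at least 29.3-fold lower against a floor of 3 UMIs. A count of 0 among 29 ACD cells allows a share of up to 10.3% of cells with a UMI, which is no limit on the cells that express the gene. Comp and Thbs2, matrix proteins of the thrombospondin family, were 14.6-fold and 8.60-fold lower in the ACD library, with 20 and 35 control members and 3 ACD members each.

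Of 32 matrix glycoproteins and proteoglycans counted, 8 were past 2-fold lower and none past 2-fold higher, against 3.08% and 1.04% of all genes, with a median log2 ratio of −0.24. Fmod (fibromodulin, a regulator of collagen fibrils) had −1.69 and Mfap4 (an elastic fibre protein) −1.19, whereas Dcn, Bgn and Lum had −0.49, −0.10 and 0.24. The fibrillar collagens, which form the main fibres of the dermis, differed less. Col1a1 was at 10037 and 7519, a log2 ratio of −0.42, Col1a2 at 15692 and 11345, a log2 ratio of −0.47, and Col3a1 at 11652 and 11424, a log2 ratio of −0.03. None of 7 passed 2-fold, and the median was −0.03. Sparc, a collagen-binding protein, was at 16971 and 17944. Among 14 other collagen genes 1 was past 2-fold lower, against 3.08% of all genes, with a median of −0.41.

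Genes of the preadipocyte signature stayed near the level of the control members, apart from a pair. Ly6a had a log2 ratio of 0.63, Lpl 0.19, Cygb 0.17, Icam1 −0.11, Cebpb −0.14 and Apoe, a lipid carrier at 5977 and 4038, −0.56. Dlk1 (Pref-1, which holds preadipocytes undifferentiated) had 359 UMIs in 25 control members and 4 UMIs in 4 ACD members, 26.1-fold lower in the ACD library, and 17 control members lay above the highest ACD member. Fabp4, the fatty acid carrier of adipocytes and vessels, had 62 UMIs in 7 control members and none in ACD members, at least 6.01-fold lower. A count of 0 among 29 ACD cells allows a share of up to 10.3% of cells with a UMI. The share in the control library, 7 of 112 cells, lies below that limit. Dlk1 and Fabp4 were the only 2 of 17 genes past 2-fold, both lower, against 3.08% of all genes. The median of the 17 was −0.11. Angptl7, an angiopoietin-like secreted protein, had 815 UMIs in 40 control members and 30 UMIs in 7 ACD members, 7.89-fold lower.

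Growth factor and stress genes gave mixed values. Igfbp3, the main carrier of insulin-like growth factors, had 446 UMIs in 45 control and 18 UMIs in 4 ACD members, 7.20-fold lower, whereas Igfbp4 had a ratio of 2.22 (1.92 to 2.57) and was found in 73 and 25 members, with a log2 ratio of 1.13 that was 0.94 without its top cells. Sfrp2, a Wnt inhibitor of reticular fibroblasts, had a log2 ratio of −1.59 and Ctgf, a TGF-beta target, −1.10. Of 17 cytokine and growth factor genes 3 were past 2-fold lower, against 3.08% of all genes, with a median of −0.11. Of 9 NF-kB genes Tnfaip2, Nfkb1 and Tnfaip3 had −1.37, −1.27 and −1.07, past 2-fold lower, against 3.08% of all genes. Rela, the transactivating subunit, was the only 1 past 2-fold higher, against 1.04%, with 1.02, or 0.71 without its top cells. Nfkbia, the most abundant, had −0.24. Among 25 immediate-early and heat shock genes the chaperones Hsp90aa1 and Hspb1 were past 2-fold higher (log2 ratios of 1.396 and 1.19), against 1.04% of all genes. The median of that list was 0.31, and 0.09 without the cells with cartilage genes. Hspb1 was at 1079 and 1901 in members with more Gdf10 than C7, and at 178 and 262 in those with more C7. Each of these pairs lay within 2-fold. Members with more Gdf10 were 44 of 112 in the control and 16 of 29 in the ACD library. The part of this mix in the Hspb1 ratio was not tested.

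**Figure D5:**
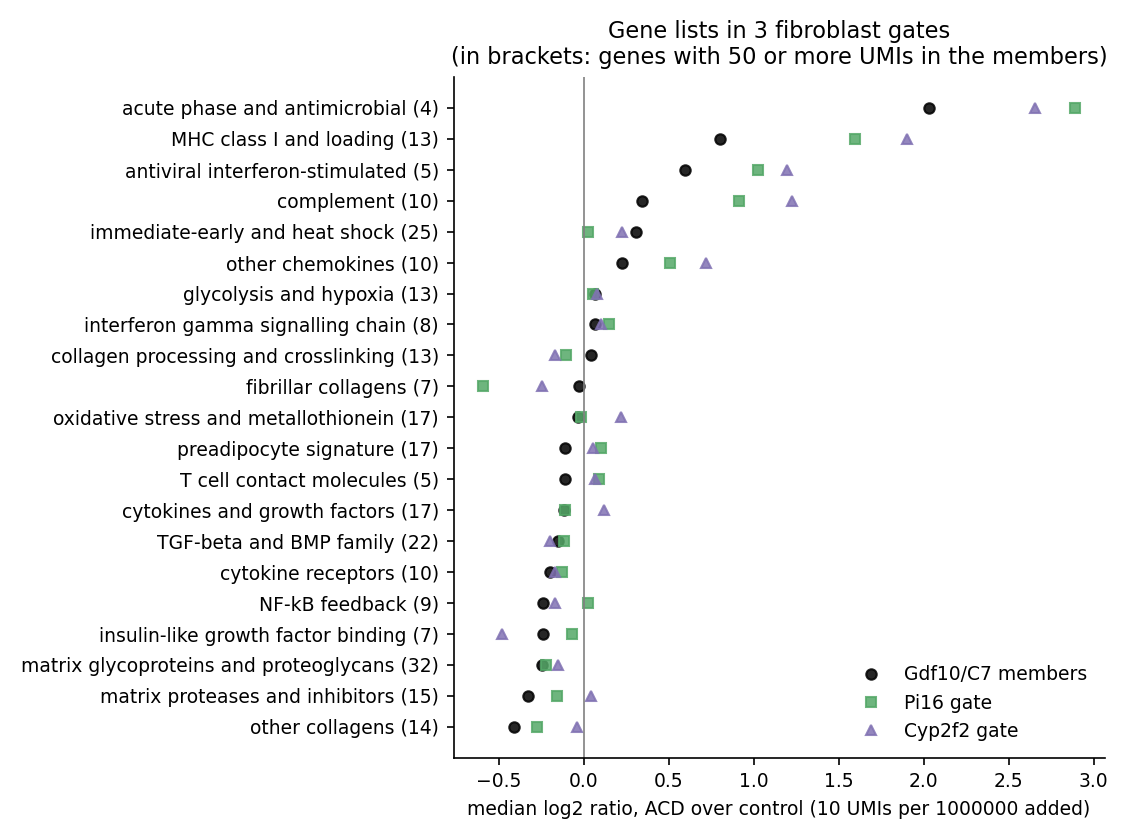
Median log2 ratio of ACD over control (x axis, 10 UMIs per 1000000 added) of each gene list in the members (black circles), the gate on Pi16 (green squares) and the gate on Cyp2f2 (purple triangles), over the genes with 50 UMIs or more in the members (number in brackets). The members lie to the left of both other gates for the class I, antiviral, complement and chemokine lists and to the right of both for the fibrillar collagens, where the members without the cells with cartilage genes (not drawn) have −0.21.

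Set beside the gates on Pi16 (419 control and 357 ACD cells) and Cyp2f2 (743 and 211 cells), the direction of the interferon-inducible genes was shared and the size was smaller in the members. The same 13 class I genes had a median of 0.80 in the members, 1.598 in the gate on Pi16 and 1.90 in the gate on Cyp2f2. In these other gates 9 and 10 of them were past 2-fold higher, against 1.09% and 1.20% of all genes counted there. H2-K1 reached 1405 in ACD members, 1931 in the gate on Pi16 and 2262 in the gate on Cyp2f2, from 229.5, 229 and 247 in the control library. The complement list had medians of 0.34, 0.91 and 1.22. For the fibrillar collagens the medians were −0.03, −0.59 and −0.24, but −0.21 in the members without the cells with cartilage genes. That step also took the NF-kB list of the members from −0.24 to −0.48 and the chondrocyte list from 0.31 to −0.08. Postn had log2 ratios of −2.68, −1.43 and −0.40, and Tnc, absent from ACD members, had 0.02 and 0.15 in the other gates. The differences between gates come from 1 library each and were not tested.

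Within each library, 29 genes (0.841% of 3447) were at least 2-fold higher in the members than in both other gates in control and ACD alike, and 7 (0.203%) were at least 2-fold lower. Agt, the angiotensinogen of adipose tissue, was at 93.4 and 44.4 in the members and at no more than 4.38 in the other gates, and Fmo2, a flavin monooxygenase, was at 116 and 120 against no more than 28.1. Lpl, at 535 and 612 against no more than 285, and Plac8 were also among them. The cartilage genes Col9a3, Acan, Cytl1 and Fgfr3 were among the 10 highest, and Col9a1, Col9a2, Col2a1, Col11a2 and Hapln1 were also among the 29. The comparison used all members, and the part of the cells with cartilage genes in it was not tested. Acan was at 141 and 249.6, in 18 and 5 cells, against no more than 39.2. Wif1, a secreted Wnt inhibitor, was at 932 and 1587 against no more than 334, and Sfrp4 and Notum, Wnt inhibitors named after their values were seen, were at 157 and 233 and at 92.4 and 78.6. These rested on few cells: Wif1 was in 26 control and 9 ACD members, Sfrp4 in 22 and 9, and Notum in 9 and 3. A single cell held 67.6% of the ACD UMIs of Sfrp4. For Notum a single cell held 52.7% of the control and 60.9% of the ACD UMIs. The 7 lower genes were Dkk2, Postn, Igfbp2, Thy1, Pth1r, Twist2 and Fndc1. Thy1, the surface protein CD90 of many fibroblasts, was at 133 and 106 in the members and at 317 to 495 in the other gates.

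The members were not uniform. Those with more Gdf10 than C7 and those with more C7 than Gdf10 differed by at least 2-fold in the same direction in both libraries at 71 genes (2.06% of 3447) on the Gdf10 side and 11 (0.319%) on the C7 side. Of the cells with cartilage genes, 10 of 14 control and 4 of 4 ACD cells fell on the Gdf10 side, and without them the counts were 32 and 7. The genes named from the 71 and 11 were chosen after their values were seen. In cells with more Gdf10, Wif1 was at 1933 against 251 in the control library and at 2589 against 9.70 in the ACD library. Eln (elastin) was at 1274 against 197 and at 1571 against 48.5, and Hspb1, a small heat shock protein, at 1079 against 178 and at 1901 against 262. Acan was at 285 against 44.1 and at 408 against 0 UMIs, but without the cells with cartilage genes its log2 ratio was −0.89 in the control library, while Wif1, Eln and Hspb1 stayed past 2-fold in both. In cells with more C7, C3 was at 1813 against 571 in the control library and at 2513 against 811 in the ACD library. C4b was at 431 against 166 and at 815 against 296, and Rarres2 (chemerin, an adipokine that attracts immune cells) at 1177 against 451 and at 1591 against 677. Without the cells with cartilage genes C3 and C4b stayed past 2-fold in both libraries, and Rarres2 had a log2 ratio of −0.79 in the ACD library. These counts use the genes that split the cells and are a description.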

How the data were processed

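Ear skin cells of 1 control and 1 ACD library were measured by droplet 3' RNA sequencing. Per the labels and the file header, the authors aligned reads to mm10 with Cell Ranger 3.1.0, while the methods name an earlier version, and they deposited raw UMI counts of 27998 genes in each barcode. The build and the version also stand in the submitters' processing notes.

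From these counts, UMIs were summed over the members of each library with Python 3.11.15, numpy 2.4.6, scipy 1.17.1 and pandas 2.3.3, and figures were drawn with matplotlib 3.10.9. Levels have exact Poisson intervals, ratios exact conditional binomial intervals and shares Clopper-Pearson intervals. Ratios were ranked on the log2 scale with 10 UMIs per 1000000 added, which understates the difference of low genes, among genes with at least 50 UMIs, leaving out the genes of the gate. With 1 library per group no test was made. Shares were taken after thinning to 2000 UMIs. Doublets were not removed, and calls by Scrublet (scanpy 1.11.5) served as an alternative. The script was tested on simulated data.

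Named genes were the 15 highest and 15 lowest ratios, up to 4 of the largest ratios and the 2 highest levels of each of 36 gene lists, the genes the study names for dermal fibroblasts, the gate genes and markers, and the 10 genes highest over both other gates. Other genes of the lists named in the text were chosen after their values were seen. The members and lists were chosen with earlier results of these data known. Of 609 list names, 10 were not matched to 1 gene and left out. Gene positions are from GENCODE M21 and promoter windows from RefSeq. The UMI limit was read as an upper limit. Alternatives changed the filter, the gate, the scaling, the added constant, the minimum count, the thinning, doublets and cells with markers of other types. Values of some genes are not reported here.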

Additional observations from a re-analysis of the deposited data

Results flagged for a closer look

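In total 4 genes were past 2-fold in opposite directions in the members and in another fibroblast gate, each from 1 library per group, and the difference between gates was not tested. Prg4, the joint lubricant lubricin, had a log2 ratio of ACD over control of −1.10 in the members (152 UMIs in 13 control and 19 UMIs in 8 ACD members) and 1.44 in the gate on Pi16, and without the top cell of each library the value in the members was −0.42. Coch (cochlin, a matrix protein) had −2.89 in the members (116 UMIs in 5 control and 2 UMIs in 2 ACD members) and 1.42 in the gate on Pi16, where 5587 and 17251 UMIs were counted; without the top cells it was −1.57 in the members. Wisp2, a secreted matricellular protein, had −1.11 in the members (71 UMIs in 27 and 8 UMIs in 5 cells) and 1.48 in the gate on Cyp2f2. Thbs4, a thrombospondin, had −2.13 in the members (109 UMIs in 14 and 5 UMIs in 2 cells) and 1.66 in the gate on Cyp2f2.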

How the results depend on the processing

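No paired analysis was possible because each group is 1 library. The ratio of the members' share of kept cells was 0.271 and lay between 0.216 and 0.349 under the other gates and filters, but was 0.451 with no limit on Pi16 or Cyp2f2. With all deposited barcodes 113 control and 35 ACD cells met the gate, of which the filter had dropped 1 and 6. The count of genes past 2-fold higher (36) was 66 with all deposited barcodes and 64 with the gate at 2 UMIs. It was 56 with no limit on Pi16 or Cyp2f2, 104 with a minimum of 20 UMIs and 11 with 200. The count past 2-fold lower (106) was 68 with the gate at 2 UMIs, 69 with Gdf10 alone, 59 with no limit on Pi16 or Cyp2f2, 50 with the gate after thinning to 4000 UMIs, 167 with 1 UMI per 1000000 added, 237 with a minimum of 20 UMIs and 20 with 200. Alternatives chosen after seeing the data left out each gene's top cell, which lowers ratios by construction and gave 17 higher and 212 lower and a median of 0.024 for the immediate-early and heat shock list, or the cells with cartilage genes, which kept 31 of the 36 higher and 89 of the 106 lower genes. The thinned share of H2-K1 became 100% in ACD and 79.5% in control members without thinning. Of the 29 genes higher than in both other gates, 11 were counted with a minimum of 200 UMIs. Log2 ratios turned positive for Igfbp3 (0.42) and Tnfaip3 (0.21) with all deposited barcodes, for Tnfaip3 (0.077) with the thinned gate and for Nfkb1 (0.11) with the gate at 2 UMIs; the cause was not tested. H2-K1, B2m, H2-D1, Psmb8, Plac8, Ifi27l2a, Iigp1 and Saa3 stayed past 2-fold higher, and Tnc, Postn, Angptl7 and Dlk1 past 2-fold lower, under all 17 settings tried for single genes. Comp and Thbs2 passed 2-fold in 16 of these, Gbp2, Igfbp3 and Itgbl1 in 15, C1s1, Hspb1, Ccl7 and Nfkb1 in 14, Hsp90aa1 and Sfrp2 in 13, Igfbp4 in 12, Tnfaip3 in 9 and Rela in 8. Size factors shifted the total of ACD over control by 0.09 on the log2 scale, which lowers log2 ratios. A total without mitochondrial and ribosomal genes shifted it by −0.01, which raises them.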

Other observations

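Cell cycle genes were scarce in the members. The summed level of 17 such genes was 113 (93.4 to 136) in the control and 280.4 (223 to 348) in the ACD library, and 1 of them reached 50 UMIs. In the gate on Pi16 it was 123 and 159, and in the gate on Cyp2f2 104 and 112. MHC class II genes were also scarce, with Cd74 at 3 UMIs in 3 control and 26 UMIs in 10 ACD members and H2-Ab1 at 1 and 8 UMIs.

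The T and NK cell marker UMIs of the ACD members included Nkg7 with 10 UMIs in 4 cells and Cd8a with 5 UMIs in 2 cells, and no control member held either gene. Ccl5, a chemokine of T and NK cells, had 30 UMIs in 2 ACD members. The part of cell pairs or free RNA in these counts was not tested.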
